A study of Mus musculus with 3 samples.

Results

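The 10 genes described here encode the Gq branch of hypertrophic signalling: the G protein alpha subunits (Gnaq, Gna11), the phospholipases C beta (Plcb1, Plcb2, Plcb3, Plcb4), the protein kinases that diacylglycerol switches on (Prkca, Prkce, Prkd1) and a diacylglycerol kinase (Dgkb). They were chosen by name, as 10 of 21883 RefSeq protein-coding genes, and they held 237 of 162107 TAC peaks and 204 of 135886 Sham peaks by peak midpoint. The peaks mark regions enriched for 5-methylcytosine (5mC) by methylated DNA immunoprecipitation and sequencing (MeDIP-seq). The TAC library came from cardiomyocytes of mice with pressure overload for 1 week (TAC), and its comparison is the Sham library, from cardiomyocytes of mice with Sham surgery. All mice were male C57Bl6/J aged 8 weeks, no transgene or other agent is named, and the sources used here do not say whether animals were pooled. An Input library without antibody served the peak calling only. Each group had 1 library, so no difference below has a replicate check and none was tested. Intervals are exact 95% binomial intervals and cover counting error only. Fewer cells with a methylated region and less methylation of it per cell cannot be told apart in such libraries.

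In the heart, angiotensin II, endothelin and catecholamines act on receptors that couple to Gq. The activated alpha subunit turns on phospholipase C beta, which splits a membrane lipid into inositol trisphosphate, a calcium-releasing signal, and diacylglycerol. Diacylglycerol activates protein kinase C and, with it, protein kinase D, which phosphorylates class II histone deacetylases, and diacylglycerol kinases end the signal by converting diacylglycerol to phosphatidic acid. The pathway is a known driver of cardiomyocyte hypertrophy under load. 5mC in a gene body and 5mC at a promoter are read differently: promoters rich in CpG are usually free of it, while transcribed bodies often carry it.

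The library depths were 14658177 tags in TAC and 12585289 in Sham, with 34.67% and 29.88% of the tags in peaks, per the file headers, and the TAC list is the longer one. Over all coding genes the ratio of TAC to Sham peaks in gene bodies was 1.07 (1.06 to 1.08). Markers of heart cell types, taken as gene bodies, held 52 TAC and 33 Sham peaks for 7 cardiomyocyte genes, 13 and 8 for 6 fibroblast genes, and 28 and 32 for 5 endothelial genes. They held 26 and 16 for 5 immune genes and 23 and 22 for 5 smooth muscle and pericyte genes. Col1a2 and Tcf21 held no peak in either library, Cd68 none in TAC and Acta2 none in Sham. Peaks in these genes do not measure expression or cell content, and the part of other cell types in the results below was not tested.

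The 10 genes together held 237 TAC and 204 Sham peaks, a ratio of 1.16 (0.959 to 1.41) whose interval holds both 1 and the ratio over all coding genes. Within this sum, the counts of single genes differed in opposite directions. The intervals of the TAC share of Plcb1 and Plcb4, given below, both hold an even split. Dgkb and Plcb1 held more TAC than Sham peaks by at least 1.5-fold, and Plcb4 fewer by at least 1.5-fold, among the 7 genes with at least 10 peaks in both libraries together (called tested below, for this fold). Past that fold in the same direction were 17.8% of 3596 tested coding genes for more TAC peaks and 10.3% for fewer. Read against those shares, 2 of 7 and 1 of 7 are no result about the set. The median TAC share of peaks was 51.7% over the 7 tested genes and 50% over the 3596. Dgkb and Plcb4 had been singled out by earlier results of these data. Without them the ratio of the other 8 genes was 1.15 (0.926 to 1.43).

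**Figure D1:**
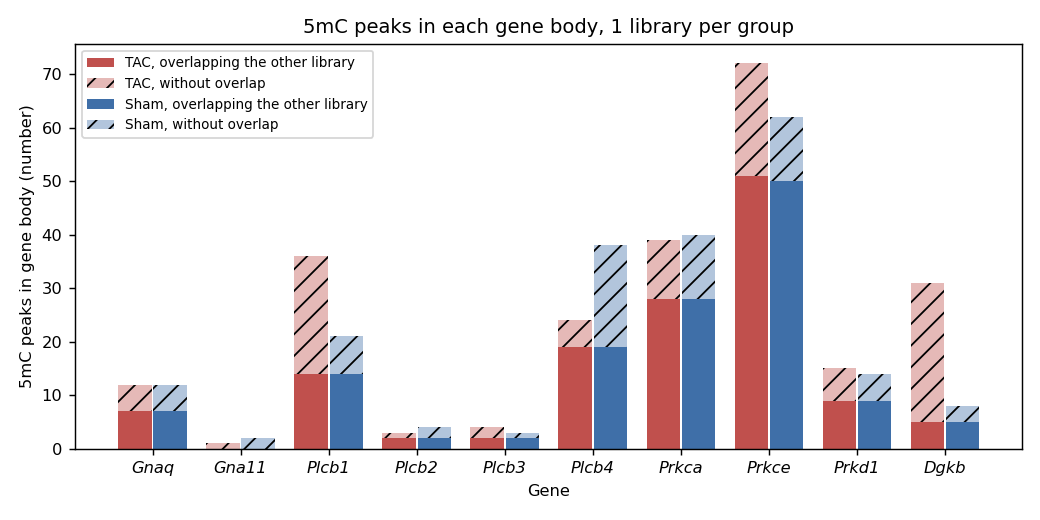
Number of 5mC peaks (vertical axis) in the body of each gene in the TAC library (red, left bar) and the Sham library (blue, right bar), with peaks that overlap a peak of the other library in solid colour and the others hatched. Dgkb has 31 TAC and 8 Sham peaks, Plcb1 36 and 21, and Plcb4 24 and 38, while Prkca, Prkd1 and Gnaq differ by at most 1 peak.

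A peak counts as shared here if 1 bp or more of it lies in some peak of the other list. Of the TAC peaks in the 10 genes, 57.8% (51.2 to 64.2) were shared, against 66.7% (59.7 to 73.1) of the Sham peaks. The same shares over all coding genes were 59.9% in TAC and 63.9% in Sham. There were 100 unshared TAC peaks and 68 unshared Sham peaks, with a ratio of 1.47 (1.07 to 2.03). The same ratio was 1.19 over all coding genes, inside that interval, and 1.68 over tested genes with at most 5 other coding genes within 500 kb, so the excess is not particular to the 10 genes. With the TAC list cut to the Sham number of rows, 78 TAC and 80 Sham peaks were unshared. This cut removes the last rows of the TAC list by construction, so a lower ratio was at least partly built in. The row order of each deposited list reads as a ranking from strong to weak peaks, although no source used here states it, and a peak's row number is given as a percentage of the list (its row fraction). Shared TAC peaks in these genes had a median row fraction of 39.8% and unshared ones 64.5%, and in Sham the medians were 39.0% and 73.4%. None of the 100 unshared TAC peaks and none of the 68 unshared Sham peaks lay in the first 10% of its list, but over the whole lists 0.353% of unshared TAC peaks and 0.461% of unshared Sham peaks did, so this is no result about the 10 genes.

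Annotated transcription starts were looked at next. RefSeq promoter windows of GRCm38.p6, the assembly that mm10 names, were matched for 9 of the 10 genes, with 10 starts in all. A TAC peak lay within 1000 bp of 1 of 10 starts and a Sham peak within 1000 bp of another 1 of 10, against 13.3% of 21262 coding starts in TAC and 12% in Sham. These shares are close to the background. The TAC peak was upstream of Dgkb, at 37879153 to 37879653 on chromosome 12, 521 bp from the start at 37880174, and the nearest Sham peak was 16160 bp away. The Sham peak was at the first listed start of Plcb4 (920 bp away), where a TAC peak that overlaps it lay at 1040 bp, just outside the window. For the other starts the nearest peak was between 1604 and 13575 bp away in TAC and between 1652 and 9251 bp in Sham. MeDIP enriches DNA by its methylated CpG, and the starts differ widely in CpG number. The 250 bases before the start of Dgkb, of Plcb1 and of Gnaq are shown for this contrast, on the coding strand 5′ to 3′, with each CG in capitals (CG reads the same on both strands):
Dgkb (chr12:37879924-37880173, plus strand): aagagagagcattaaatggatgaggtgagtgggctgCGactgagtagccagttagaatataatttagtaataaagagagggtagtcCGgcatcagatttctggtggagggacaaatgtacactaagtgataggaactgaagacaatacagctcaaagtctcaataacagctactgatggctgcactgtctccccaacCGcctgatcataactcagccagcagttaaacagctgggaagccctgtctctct
Plcb1 (chr2:134785914-134786163, plus strand): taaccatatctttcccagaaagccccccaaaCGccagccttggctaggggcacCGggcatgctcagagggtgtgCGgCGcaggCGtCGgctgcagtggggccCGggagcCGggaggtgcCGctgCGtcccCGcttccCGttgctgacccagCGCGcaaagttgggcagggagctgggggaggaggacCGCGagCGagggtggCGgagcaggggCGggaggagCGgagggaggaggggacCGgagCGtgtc
Gnaq (chr19:16132434-16132683, plus strand): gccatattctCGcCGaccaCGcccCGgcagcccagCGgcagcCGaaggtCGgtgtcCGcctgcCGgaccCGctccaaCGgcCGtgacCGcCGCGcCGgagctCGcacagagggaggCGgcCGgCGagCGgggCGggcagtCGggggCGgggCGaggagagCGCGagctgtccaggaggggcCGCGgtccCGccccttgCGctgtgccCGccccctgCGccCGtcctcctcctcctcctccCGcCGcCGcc
Dgkb has 3 CG in this window, Plcb1 22 and Gnaq 37, against a median of 10 over 21262 coding starts, of which 93.4% hold at least 1. Of the remaining starts, Gna11 has 38, Prkca 39, Prkd1 30, Plcb3 20, Plcb2 4 and the starts of Plcb4 42 and 3. The CG counts describe the letters of the reference and not their methylation. The shown window of Dgkb begins after the end of its TAC peak, so no shown base of Dgkb lies in that peak. The starts of Plcb2 and Plcb4 with few CG had no peak within 1000 bp in either library. Any link between CG number and peaks at these starts was not tested.

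Gnaq encodes the Gq alpha subunit that couples most hypertrophic receptors to phospholipase C. In its 256 kb on chromosome 19 (16132684 to 16388520) it held 12 TAC and 12 Sham peaks, of which 7 in each library were shared. The TAC share of its peaks was 50% (29.1 to 70.9), against 54.8% in the 500 kb on either side, which held 63 TAC and 52 Sham peaks. Its leading peak in both lists was the same region, at 16318423 to 16319440 in TAC (row fraction 8.34%) and 16318340 to 16319094 in Sham (row fraction 9.98%). Of its 7 shared pairs, 2 stood nearer the top of the list in TAC than in Sham. Gna11, encoding the close relative of Gq, is a short gene on chromosome 10 (81528724 to 81545162) with 1 TAC and 2 Sham peaks and no overlap. The TAC peak lay 799 bp from the nearer Sham peak, and its flanks held 65 peaks in each library.

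Among the phospholipases C beta, the sums were even while the long genes diverged. The 4 genes held 67 TAC and 66 Sham peaks, a ratio of 1.02 (0.712 to 1.45). Plcb2, known best from blood cells, held 3 TAC and 4 Sham peaks on chromosome 2 (118705003 to 118728661). Both of its shared peaks stood lower in the TAC list. At 118713376 to 118714001 the row fraction was 22.9% in TAC and 7.27% in Sham, and at 118705031 to 118705833 it was 22.0% in TAC and 9.70% in Sham. Plcb3, a broadly expressed Gq target on chromosome 19 (6953708 to 6975006), held 4 TAC and 3 Sham peaks, and its leading peak stood at nearly the same place in both lists (10.2% in TAC and 10.3% in Sham).

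Plcb1 and Plcb4 lie next to each other on chromosome 2 in the same orientation, 183 kb apart, and differed in opposite directions. Plcb1, whose product is a Gq effector also found in the nucleus, held 36 TAC and 21 Sham peaks over 689 kb (134786164 to 135475258), a TAC share of 63.2% (49.3 to 75.6). Plcb4, whose product is best known from neurons, held 24 TAC and 38 Sham peaks over 356 kb (135658603 to 136014602), a TAC share of 38.7% (26.6 to 51.9). Both intervals reach an even split, but they overlap each other only between 49.3% and 51.9%. The stretch between the genes held 12 TAC and 10 Sham peaks. The 500 kb below Plcb1 held 18 and 15, and the 500 kb above Plcb4, with Lamp5 and Pak7, held 23 TAC and 7 Sham peaks, a TAC share of 76.7% (57.7 to 90.1). All 7 Sham peaks above Plcb4 were shared, and 16 of the 23 TAC peaks were not.

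**Figure D2:**
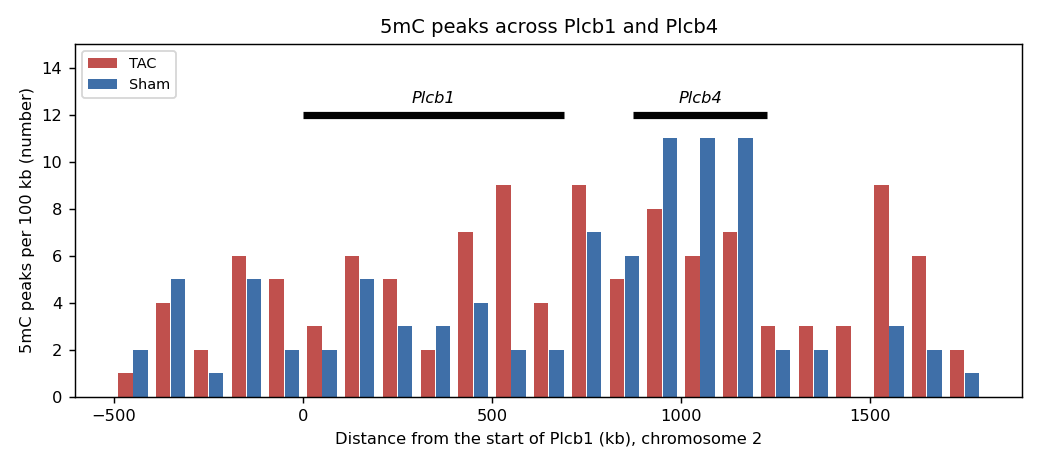
Number of 5mC peaks per 100 kb (vertical axis) along chromosome 2 from 500 kb below Plcb1 to 500 kb above Plcb4, as distance from the Plcb1 start (horizontal axis, kb), in TAC (red, left bar) and Sham (blue, right bar), with the gene bodies as black lines. Plcb1 holds 36 TAC and 21 Sham peaks, Plcb4 24 and 38, and the 500 kb above Plcb4 23 and 7.

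Within Plcb1 the TAC excess was largest in the part nearest the 3′ end, which was not tested. Cut into 4 equal parts from the 5′ end, its TAC peaks numbered 7, 8, 8 and 13, against 5, 7, 5 and 4 Sham peaks. In the last part 9 TAC peaks and no Sham peak were unshared. The unshared TAC peaks of Plcb1 were mostly weak, with a median row fraction of 68.9%, close to the 69.5% over all unshared TAC peaks. Their median distance to a Sham peak was 11298 bp. Some shared peaks ranked much higher in TAC, such as that at 135360122 to 135361121 (row fraction 7.71% in TAC and 29.8% in Sham). Plcb1 also held the widest unshared Sham peak among its 7, at 134795415 to 134797312 (1898 bp, row fraction 13.3%), with the nearest TAC peak 20555 bp away. With TAC cut at a whole run of equally ranked rows near the Sham number, Plcb1 held 30 TAC and 21 Sham peaks and was no longer past 1.5-fold.

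Plcb4 showed its Sham excess along its whole length. In 4 equal parts from the 5′ end it held 8, 5, 5 and 6 TAC peaks, against 10, 11, 9 and 8 Sham peaks. Unshared peaks numbered 5 in TAC and 19 in Sham, so TAC made up 20.8% (7.13 to 42.2) of them. The Sham-only peaks were not all near the threshold: 7 of 19 lay in the first 50% of the Sham list and 4 in its first 25%, among them 135813659 to 135814419 (row fraction 13.3%). Over all unshared Sham peaks, the strongest 25% reached down to a row fraction of 50.9%, and the difference from 7 of 19 was not tested. Only 1 of the 19 lay within 1000 bp of a TAC peak, and the median distance was 4086 bp. The 19 shared pairs of Plcb4 did not lean to either library, with a median difference in row fraction of -0.0095 percentage points (TAC minus Sham) and 10 of 19 nearer the top in TAC. Its strongest peak, 135808947 to 135809573 in TAC, stood at 2.05% of the TAC list and 2.58% of the Sham list. In the first 50% of rows of each list Plcb4 held 13 TAC and 18 Sham peaks, which is under 1.5-fold.

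The kinases held the most peaks, and none of them was past 1.5-fold. Prkca, encoding the conventional PKC alpha, a calcium- and diacylglycerol-dependent kinase, held 39 TAC and 40 Sham peaks on chromosome 11 (107933387 to 108343888), with 28 shared in each. Prkce, encoding the diacylglycerol-dependent but calcium-independent PKC epsilon, is the most peak-rich of the 10 genes, with 72 TAC and 62 Sham peaks on chromosome 17 (86167785 to 86657919), a TAC share of 53.7% (44.9 to 62.4). Of these, 70.8% of the TAC and 80.6% of the Sham peaks were shared. At 14.7 TAC and 12.6 Sham peaks per 100 kb, its body was denser in peaks than its flanks (9.90 and 10.2). The first-ranked peak of all 10 genes lay in Prkce in both libraries, at 0.836% of the TAC and 0.927% of the Sham list. Prkd1, encoding protein kinase D1, held 15 TAC and 14 Sham peaks on chromosome 12 (50341226 to 50649271).

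Ranks within shared pairs were compared as well, without a test. In Prkca 19 of 28 shared pairs stood nearer the top of the list in TAC, with a median difference of -7.86 percentage points. Over 90110 shared pairs of the genome that median was -2.14, and 58.2% stood nearer the top in TAC. The quartiles of the difference were -18.8 and 6.48 points in Prkca and -17.2 and 8.75 over the genome, so Prkca was near the background. Among peaks in the first 50% of rows of each list, Prkca held 25 in TAC and 15 in Sham. This passes the 1.5-fold that its full count (39 and 40) does not reach, but the interval of the TAC share (62.5%, 45.8 to 77.3) holds an even split. Prkd1 went the other way, with 2 of 9 pairs nearer the top in TAC and a median difference of +21.2 points. With TAC cut to the Sham number of rows, Prkd1 held 8 TAC and 14 Sham peaks, past 1.5-fold, with a TAC share of 36.4% (17.2 to 59.3). The share of all tested genes past the fold was not counted at these settings. Row fractions within a run of equally ranked rows follow chromosome order, and the longest such runs span 8.57% of the TAC and 10.5% of the Sham list, so small differences carry no information.

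Dgkb, a diacylglycerol kinase gene best known from brain, had the largest fold difference among the 10 genes. In its 754 kb on chromosome 12 (37880169 to 38634239) it held 31 TAC and 8 Sham peaks, a ratio of 3.88 (1.74 to 9.76) and a TAC share of 79.5% (63.5 to 90.7). Of 3596 tested genes, 20 had a higher TAC share, but Dgkb had been singled out by earlier results of these data. The rank is thus no independent evidence. Peaks covered 2.38% of its length in TAC and 0.624% in Sham. With 1.06 Sham peaks per 100 kb it was the sparsest of the 10 genes in Sham, and with 4.11 per 100 kb also in TAC. The 5 shared peaks account for most of what Sham had, and 26 TAC peaks against 3 Sham peaks were unshared.

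**Figure D3:**
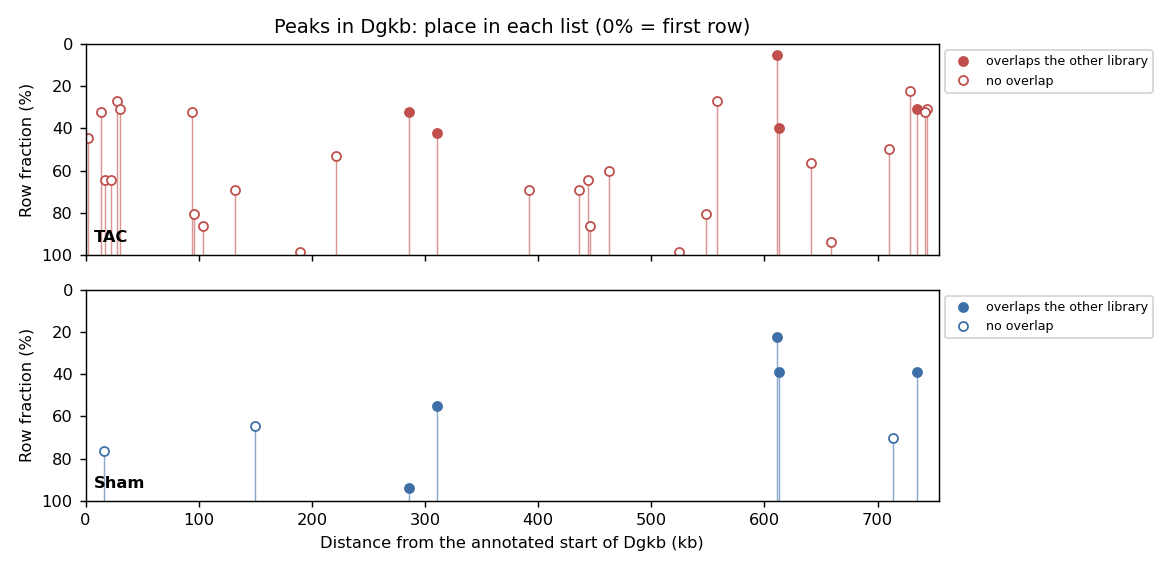
Peaks of Dgkb by distance from its annotated start (horizontal axis, kb) and row fraction (vertical axis, %, 0% at the top is the strongest), for TAC (upper panel, red) and Sham (lower panel, blue), with filled points for peaks that overlap the other library and open points for the others. TAC shows 31 points, 26 of them open, and Sham 8 points, 3 of them open, and no Sham point lies in the third of 4 equal parts of the gene.

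TAC peaks of Dgkb were found along the whole gene. In 4 equal parts from the 5′ end it held 10, 4, 8 and 9 TAC peaks and 2, 2, 0 and 4 Sham peaks, and all 10 TAC peaks of the first part were unshared. The unshared TAC peaks lay at a median of 42091 bp from the nearest Sham peak, with a range from 485 to 148381 bp. With 8 Sham peaks in 754 kb, such distances restate the low Sham number. The unshared TAC peaks of Dgkb were mostly weak, with a median row fraction of 62.4%, 10 of 26 in the first 50% of the list and 1 in its first 25%. Over all unshared TAC peaks that median was 69.5%. Of the 5 shared pairs 4 stood nearer the top in TAC. The leading pair, 38491091 to 38492018 in TAC and 38491210 to 38491994 in Sham, had a row fraction of 5.40% in TAC and 22.6% in Sham. Dgkb stayed past the fold with TAC cut to the Sham number of rows (26 TAC and 8 Sham peaks).

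Gene bodies were set beside the 500 kb on either side, since peak numbers in TAC and Sham also vary by region. The flanks of the 10 genes together held 677 TAC and 562 Sham peaks, a ratio of 1.20 (1.08 to 1.35), and the ratio of the gene bodies (1.16) lies inside that interval. The whole lists, with 162107 TAC and 135886 Sham peaks, hold more TAC peaks in a similar proportion, so the excess is not particular to these flanks. The TAC share in the flanks of Dgkb was 64.3% (53.1 to 74.4), with 54 TAC and 30 Sham peaks. Its body at 79.5% was 15.2 percentage points higher, and 116 of 3596 tested genes had a larger difference of body minus flanks. The flanks of Prkd1, with no other coding gene, held 46 TAC and 21 Sham peaks (68.7%), while its body was at 51.7%. For Plcb1 the body was 16.7 points above its flanks (52 TAC and 60 Sham peaks), but those flanks include much of Plcb4. With 250 kb on either side the TAC share in the flanks of Plcb1 was 55.9% (33 TAC and 26 Sham peaks), and with 1000 kb it was 53.1%, so the gap shrank by more than 1.5 times and the flanks turned from more Sham to more TAC peaks. The widest gap with 500 kb flanks was that of Plcb4, whose flanks had 56 TAC and 25 Sham peaks (69.1%, 57.9 to 78.9), 30.4 points above its body. The lower of these flanks (33 TAC and 18 Sham peaks) includes the 3′ part of Plcb1, so the gaps of both genes are not independent. Of 3596 tested genes, 5 had a lower body minus flanks than Plcb4. Dgkb and Plcb4 had been singled out by earlier results of these data, so such ranks are no independent evidence. The intervals of the body and the 500 kb flanks of Plcb4 do not overlap. They did overlap with 250 kb flanks (61.1%, 43.5 to 76.9) and in the first 50% of rows, where the body was at 41.9% (24.5 to 60.9) and the flanks at 65.6% (46.8 to 81.4). The same held at 20 or more tags per 10000000 total tags, a peak's tag number being inferred from the row order, with the body at 35.0% (15.4 to 59.2) and the flanks at 62.5% (35.4 to 84.8). The median of that difference over tested genes was -1.41 points, with a central 95% from -18.7 to 16.1.

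**Figure D4:**
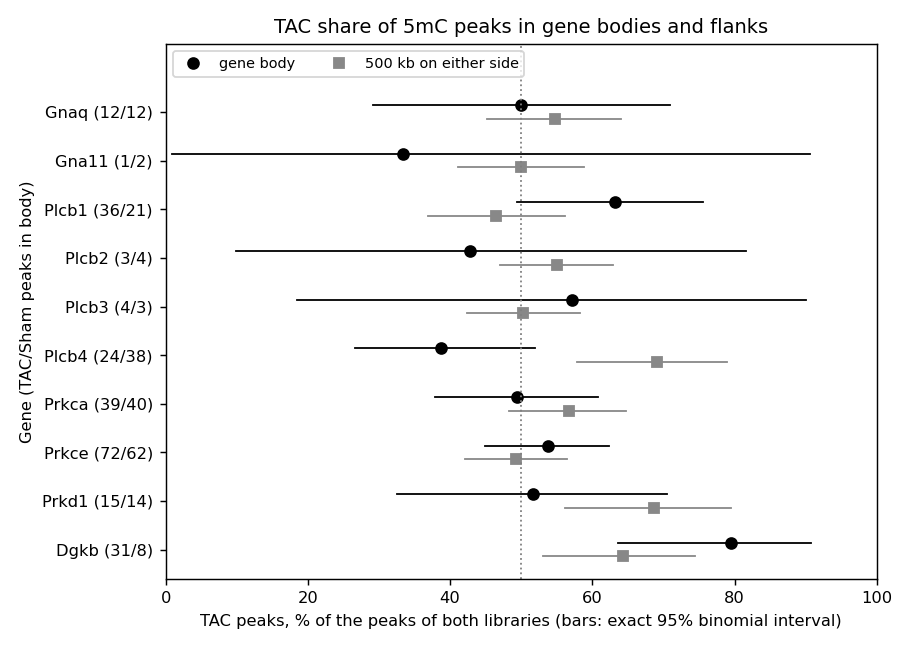
TAC peaks as a percentage of the peaks of both libraries (horizontal axis) in each gene body (black circles) and in the 500 kb on either side (grey squares), with exact 95% binomial intervals as lines and TAC/Sham peak numbers beside the gene names. The body of Plcb4 (38.7%) lies left of its flanks (69.1%) without overlap of the intervals, and the body of Dgkb (79.5%) lies right of its flanks (64.3%) with overlap.

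Against genes of like size the picture differs for the genes past the fold. Of 699 tested coding genes of at least 250 kb, a size class set after the values were seen, 31.5% held more TAC peaks by at least 1.5-fold and 0.572% fewer. Among these long genes Plcb1 (63.2%) was above the upper quartile of the TAC share (62.1%), with 147 genes higher. Dgkb (79.5%) had 7 genes above it. Plcb4 was 1 of 4 long genes with fewer TAC peaks by that fold, beside Dock9 (32 TAC and 55 Sham), Adamts17 (23 and 35) and Rit2 (6 and 9). No long gene had a lower body minus flanks than Plcb4. Since Dgkb and Plcb4 had been singled out by earlier results of these data, their places among long genes are not independent of that choice. Of 803 tested genes with at most 5 other coding genes within 500 kb, 30.4% were past the fold with more TAC peaks and 4.61% with fewer. Dgkb has 2 such neighbours, Plcb4 3, Plcb1 4, Gnaq 5 and Prkd1 none, so these 5 genes sit in gene-poor surroundings.

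**Figure D5:**
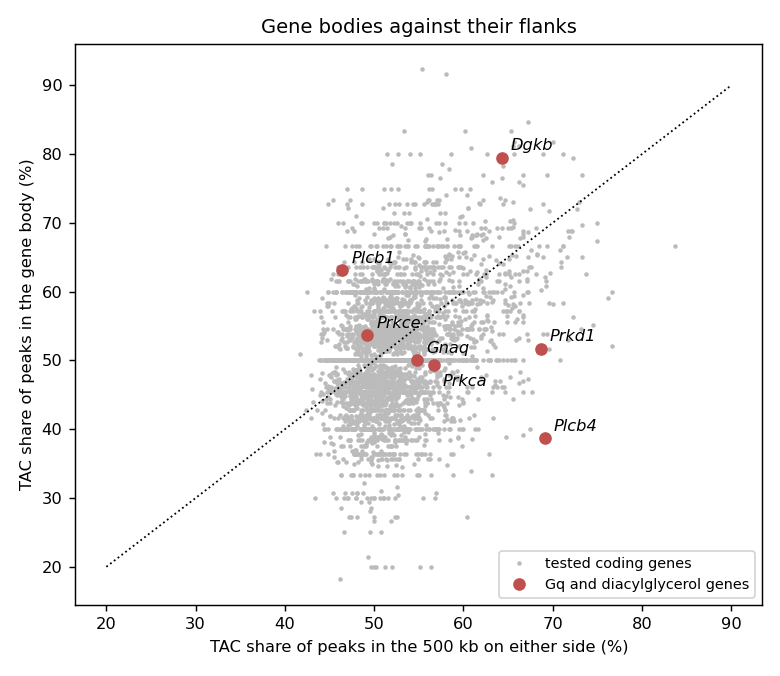
TAC share of peaks in the gene body (vertical axis, %) against that in the 500 kb on either side (horizontal axis, %), for the 7 tested Gq and diacylglycerol genes (red, labelled) and all 3596 tested coding genes (grey), with a dotted line where both are equal. Plcb4 lies far below the line (38.7% and 69.1%), Prkd1 below it (51.7% and 68.7%), and Dgkb (79.5% and 64.3%) and Plcb1 (63.2% and 46.4%) above it.

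The other genes of the pathway, 91 in 7 lists, held 806 TAC and 740 Sham peaks, a ratio of 1.09 (0.985 to 1.21). Of the 45 tested ones 5 held more TAC peaks by at least 1.5-fold and 3 fewer, against the 17.8% and 10.3% of all tested genes. For each of these genes past the fold the interval of the TAC share holds an even split. It was 30.8% to 89.1% in Pi4ka and 19.7% to 61.5% in Grk5, and several of them have few peaks. In either library 9 of the 91 held no peak. Gq-coupled receptors held 88 TAC and 70 Sham peaks, with Adra1a, an alpha-1 adrenergic receptor gene, past the fold (19 and 12) and the muscarinic receptor gene Chrm3 (23 and 17) within it. Other G protein subunits and regulators held 72 and 77. There Grk5, which encodes a receptor kinase that also acts on histone deacetylases in cardiomyocytes, was past the fold in the other direction (9 TAC and 14 Sham peaks), and Rgs3 (28 and 28) was not. Other phospholipases C held 143 and 125, with Plcz1, known from sperm, past the fold (10 and 6). Plcl1 (36 and 38) and Plce1, a Ras-regulated phospholipase gene (27 and 27), held the most.

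Other PKC and PKD genes held 100 TAC and 89 Sham peaks, with Prkcb (38 and 29) and Prkch (13 and 14) the richest and Prkd2 (4 and 6) past the fold with fewer TAC peaks. The remaining diacylglycerol kinase genes held 118 TAC and 104 Sham peaks, a ratio of 1.13 (0.864 to 1.49), with Dgki at 53 and 49, Dgkg at 26 and 21 and Dgkd past the fold at 7 and 4. Genes of the inositol phosphate and lipid cycle held 133 and 138. Of these Pip5k1b (16 and 10) and Pi4ka (7 and 4) were past the fold with more TAC peaks and Pip5k1c (4 and 7) with fewer, and the inositol trisphosphate receptor genes Itpr2 (45 and 49) and Itpr3 (12 and 16) held the most. Effectors and scaffolds held 152 and 137 with none past the fold, led by Hdac9 (56 and 50) and Akap6 (28 and 30), which encodes a nuclear envelope scaffold.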

How the data were processed

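MeDIP-seq peak lists of 1 TAC and 1 Sham library were used. The submitters' processing notes name HOMER 4.5, BWA 0.7.4-r385 and Picard as tools and mm10 as the build. HOMER made the peaks per library in its histone style against 1 input library, with at least 4-fold over input and a Poisson p-value of 0.0001, per the file headers, and the tag threshold was 12 in TAC and 11 in Sham. The deposited score is 1 for every peak, and the other deposited columns give positions, with no signal per peak, so coverage and methylation level are unknown.

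A gene holds the peaks whose midpoint lies between its start and end in the RefSeq annotation of GRCm38.p6, the assembly mm10 names. Genes with at least 10 peaks in both libraries together were compared by a 1.5-fold difference in peak number, with no p-value. Neighbouring peaks are not independent, so intervals are too narrow. The lists run in blocks of rows sorted by position (414 in TAC, 352 in Sham). Taking 8 tags in the last block and 1 more per block, the summed blocks reach 99.3% of what the headers count in peaks, for both libraries, although 3.25% of peaks in each then fall below the tag threshold. This inferred tag number, found from the data and not stated in the sources used here, served as a filter. Members and lists were chosen with earlier results of these data known. All members are named, and of other pathway genes those past the fold with at least 10 peaks and the 2 richest per list. Long genes with fewer TAC peaks were named after their values were seen. Python 3.11.15, numpy 2.4.6, pandas 2.3.3, scipy 1.17.1 and matplotlib 3.10.9 were used, and the counting was checked on simulated data. Sequence of the peaks was not analysed here, since no genome was used.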

Additional observations from a re-analysis of the deposited data

How the results depend on the processing

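Over 13 other settings, 182 of 192 recomputed values stayed within the counting interval of the reported value, or for counts of genes within 1.5 times. Many could hardly leave it, so this tally does not measure robustness. All settings reuse the same lists, and the interval of the TAC share in Gna11 ran from 0.84% to 90.6%. Counting any overlap with the gene body gave the same 237 TAC and 204 Sham peaks. The TAC share of peaks in the bodies of Dgkb, Plcb1 and Plcb4 never turned its direction. That in the flanks of Plcb1 did, from 46.4% with 500 kb to 55.9% with 250 kb and 53.1% with 1000 kb. In the first 50% of rows it was 51.0%. The TAC share was 76.5% to 87.5% in Dgkb, 58.8% to 63.2% in Plcb1 and 34.5% to 41.9% in Plcb4. The ratio over the 10 genes ran from 0.975 to 1.16 and the number of genes past 1.5-fold, with all 10 kept, from 3 to 4. With TAC cut to the Sham number of rows, the ratio of TAC to Sham unshared peaks was 0.975 and that of the flanks 1.03. With TAC cut at whole blocks near that number they were 0.926 and 1.01. Both settings remove TAC peaks by construction. At 20 or more inferred tags per 10000000 total tags, the flank ratio was 0.990, and the cause was not tested. Whole blocks and the settings on the inferred tag number were chosen after seeing the data.

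Single calls depended on the threshold. Plcb1 missed the fold at whole blocks (30 TAC and 21 Sham peaks), Plcb4 in the first 50% of rows (13 and 18), and Dgkb had under 10 peaks at 20 tags (7 and 1). Prkd1 passed it with fewer TAC peaks at 11 inferred tags in Sham and 13 in TAC (9 and 14), with TAC cut to the Sham number of rows (8 and 14) and at whole blocks (8 and 14). Prkca passed it with more TAC peaks in the first 50% of rows (25 and 15) and at 20 tags (15 and 9). The share of all tested genes past the fold was counted for the full lists only. No paired analysis was possible because each group has 1 library, and leaving out a replicate was not possible for the same reason. Peak numbers do not show a change within shared peaks, and signal under the threshold of a list is not seen.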

Other observations

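Several other genes of the pathway, chosen after their values were seen, combined an even body with TAC-rich flanks, as Prkd1 did. How many of all tested genes do so was not counted, so this is no result about the pathway. Over tested genes, the TAC share of the body minus that of the flanks had a central 95% from -18.7 to 16.1 points. Plch1, a phospholipase C eta gene, held 9 TAC and 7 Sham peaks in its body and 52 and 20 in the 500 kb on either side. Itpr1, an inositol trisphosphate receptor gene, held 10 and 10 in its body and 72 and 41 in its flanks. Dgki, a diacylglycerol kinase gene, held 53 and 49 in its body and 71 and 45 in its flanks. Hdac9, a class II histone deacetylase gene, held 56 and 50 in its body and 51 and 32 in its flanks. In Grk5 the body held fewer TAC peaks (9 and 14) and the flanks more (36 and 18), the same arrangement as in Plcb4. Of the 5 pathway genes past 1.5-fold with more TAC peaks, Adra1a held 19 and 12 in the body and 95 and 94 in the flanks. Pip5k1b held 16 and 10 in the body and 86 and 85 in the flanks, and Pi4ka 7 and 4, and 58 and 58. Dgkd held 7 and 4 in the body and 48 and 46 in the flanks. The flanks of Plcz1 held 83 and 70. Flanks were not compared with those of all tested genes past that fold.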
